A study of Mus musculus with 25 samples.

Results

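The response of CD8a+ conventional dendritic cells (cDC) of the mouse Peyer's patch to R848 was read from 8 of the 25 arrays of the series. The 5 R848 arrays held CD8a+ cDC sorted 9 h after mice were given R848 by gavage, and the 3 untreated arrays held CD8a+ cDC of untreated mice. The arrays were chosen by their titles. The titles of the R848 arrays also carry the words steady state, and the treatment was taken from the other labels. All mice were wild-type (WT) C57BL/6 females of 6 to 8 weeks, and each replicate pooled 42 of them, so the spread between arrays is that between pools. Cells of both groups were released with collagenase and DNase, enriched with CD11c beads and sorted as CD11c-high, MHC class II+, CD8a+ and negative for SIRPa, BST2, CD11b and CD4. RNA of 2 to 20 ng was amplified before it was hybridised to Affymetrix Mouse Gene 1.0 ST arrays. The labels place these cells in the interfollicular region and the T cell zone, and the series design calls the replicates independent.

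R848 is a small imidazoquinoline that activates TLR7, an endosomal receptor for single-stranded RNA that signals through MyD88 to NF-kB and to interferon regulatory factors. CD8a+ cDC belong to the cDC1 lineage, which depends on IRF8 and BATF3, takes up dead cells through CLEC9A, senses double-stranded RNA through TLR3 and presents exogenous antigen to CD8+ T cells. Mouse cDC1 are known for high TLR3 and low TLR7. Activated dendritic cells in general gain CCR7 and co-stimulatory molecules, while type I interferon induces antiviral genes in most cell types.

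The R848 and the untreated arrays were deposited with different row orders, and the row names fitted only the R848 arrays. The untreated rows were therefore matched to the R848 rows by an alignment that keeps their order, and 24920 of 28939 rows (86.1%) had the same partner by at least 2 of 3 routes. This left 17878 of 19938 genes (89.7%) to be tested. Array set and treatment cannot be told apart, because each group of arrays lies in one set. Rows were matched by level as well as by order, so a correlation of levels after the match is partly built in and is no independent check. The 2 transcript clusters of a gene correlated across genes at 0.795 in the matched untreated arrays over 645 genes, against 0.055 in the deposited row order. This value is partly built in too, because the 2 clusters correlated at 0.803 in the R848 arrays, to whose levels the rows were matched. Of 15 such genes with a cluster moved at least 4-fold, the other cluster moved the same way in 15, and by at least 2-fold in 11. All levels below are quantile-normalized log2 signals, and a difference is R848 minus untreated in log2 units with its SE. A gene was called with limma at a Benjamini-Hochberg adjusted p under 0.05 and a difference of at least 1, which is 2-fold.

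R848 replicates 4 and 5 stood apart from R848 replicates 1 to 3 in markers of other cells. The summed linear signal of 12 measured macrophage and monocyte markers was 3187, 3045, 3897, 1105 and 809 in R848 replicates 1 to 5, against 3415 to 3811 in the untreated arrays. That of 7 plasma cell markers was 2097, 1781, 1467, 629 and 681 in R848 replicates 1 to 5, against 366 to 550 in the untreated arrays. That of 8 B cell markers was 495 to 963 in the R848 arrays and 388 to 494 in the untreated arrays, with replicates 4 and 5 again the lowest. In the macrophage and monocyte sum, most of the drop lay in the lysozyme genes Lyz1 and Lyz2. Lyz2 had 10.58, 10.17, 10.62, 7.48 and 5.05 in the R848 arrays, against 10.23, 10.16 and 10.35 in the untreated arrays. Lyz1, named after its values were seen, had 9.61, 9.96, 10.43, 7.48 and 5.81 in the R848 arrays, against 7.44, 8.26 and 8.23 in the untreated arrays. The total counts of calls below are therefore also given without replicates 4 and 5 and without replicates 1 to 3, a split chosen after these values were seen. Counts of single lists are given under this split only in some cases.

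**Figure D1:**
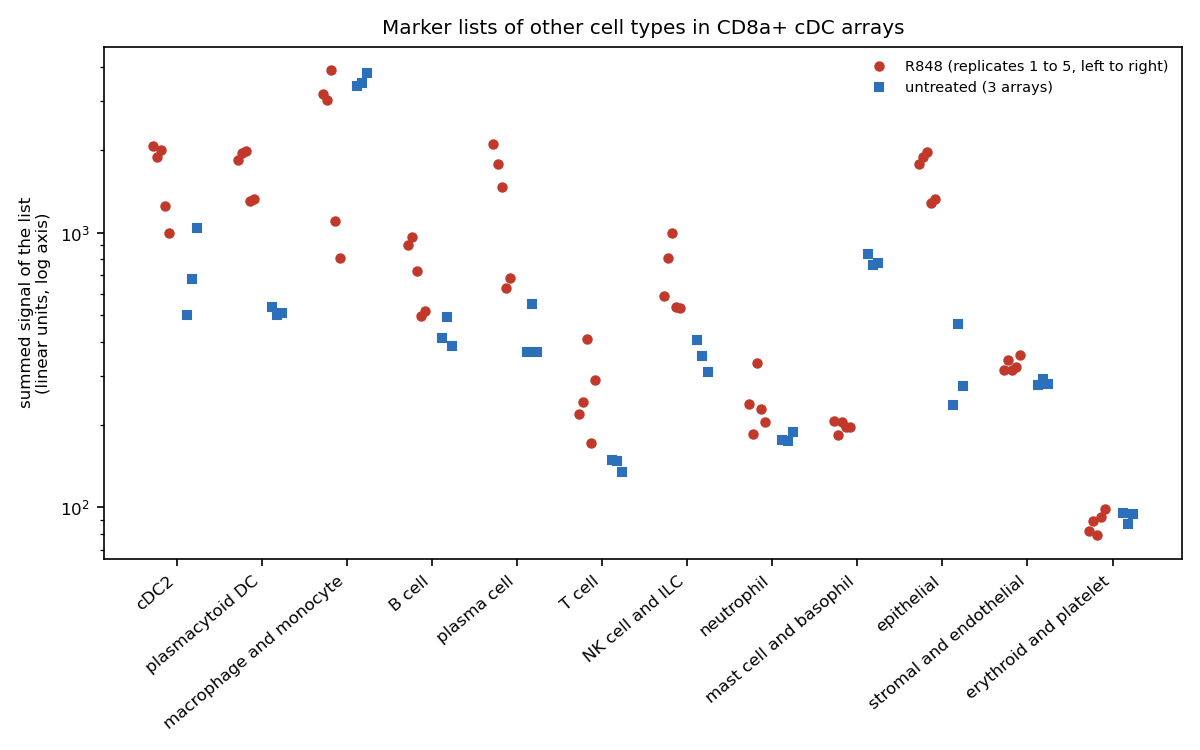
Summed linear signal (log axis) of the measured members of each marker list in the 5 R848 arrays (red circles, replicates 1 to 5 from left to right) and the 3 untreated arrays (blue squares). R848 replicates 4 and 5 lie below replicates 1 to 3 for macrophage, plasma cell and B cell markers, and the plasmacytoid and epithelial sums are high in the R848 arrays through the gene Spib, which both lists hold.

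Some markers of other cells differed between the groups. B cell markers had 3 of 8 called higher and 1 lower, with the B cell receptor chain Cd79a at 3.68 ± 0.40 and the surface protein Ms4a1 at 1.83 ± 0.22. The lower one was Ighm, the heavy chain of IgM, at -1.63 ± 0.31, with a mean of 5.95 in the R848 arrays and 7.58 in the untreated arrays. Plasma cell markers had 3 of 7 called higher and 0 lower, with Jchain, which joins secreted IgA and IgM, at 3.48 ± 0.65. Jchain had 10.34, 10.01, 9.76, 8.19 and 8.44 in the R848 arrays, against 5.15, 7.35 and 5.11 in the untreated arrays. Jchain was thus highest in R848 replicates 1 to 3, and even R848 replicates 4 and 5 lay above the untreated arrays. NK cell and ILC markers had 3 of 11 called higher and 1 lower and T cell markers 1 of 7 called higher. Without R848 replicate 4 the T cell count was 3, and without R848 replicate 5, untreated replicate 2 or untreated replicate 3 it was 0. The 1 lower NK cell and ILC gene was lost without R848 replicate 2 or untreated replicate 1. The summed NK cell and ILC signal was 532 to 998 in the R848 arrays, against 311 to 406 in the untreated arrays, and the T cell sum was 171 to 409 in the R848 arrays, against 135 to 148 in the untreated arrays. The cDC2 list had 4 of 10 called higher and 1 lower, with a sum of 999.98 to 2059 in the R848 arrays and 499 to 1042 in the untreated arrays. Its higher count was 2 without R848 replicate 1 or 3 and 1 without R848 replicates 1 to 3, and its lower count was 0 without untreated replicate 3. Itgam, which encodes CD11b, stayed near 4 in every array of both groups. On the scale of the 4-group fit described below, its mean in CD11b+ cDC was 4.17 after R848 and 6.92 untreated. A low Itgam after R848 therefore does not tell the subsets apart. Macrophage markers had 2 of 12 called higher (1 without untreated replicate 1 or 2) and 1 lower, neutrophil markers 1 of 12 higher, stromal and endothelial markers 1 of 14 higher, and erythroid and platelet markers 0 of 5 in either direction. Of 8 mast cell and basophil markers, 1 was called lower, the receptor Kit, and 0 higher. Without Spib, the plasmacytoid sum was 233 to 292 in the R848 arrays and 486 to 522 in the untreated arrays, and the epithelial sum was 197 to 245 in the R848 arrays and 219 to 446 in the untreated arrays. The higher untreated plasmacytoid sum came from the single gene Ccr9, at 4.30 to 4.89 in the R848 arrays and 8.27 to 8.48 in the untreated arrays. Of 8 plasmacytoid markers, 2 were called higher and 1, Ccr9, lower. The part of other cells in the differences below was not tested.

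Of the sort markers, Cd8a was high and Itgam and Cd4 were low in the RNA of both groups. Itgam was also low in R848 CD11b+ cDC, as given above. Cd8a had 10.27, 10.66, 10.39, 10.32 and 10.49 in the R848 arrays, against 10.16, 10.20 and 10.32 in the untreated arrays. The difference of 0.20 ± 0.10, adjusted p = 0.131 was not called, and Itgam (0.13 ± 0.09) and Cd4 (0.14 ± 0.15) were low and not called either. Itgax, which encodes the integrin chain CD11c used to enrich and gate the cells, was lower after R848. Itgax had 7.32, 7.44, 7.38, 7.56 and 7.51 in the R848 arrays, against 10.49, 10.43 and 10.46 in the untreated arrays. No R848 array reached the untreated arrays, and the difference was -3.02 ± 0.07, adjusted p = 2.92e-08. Cd8b1, the beta chain that pairs with CD8a on T cells, was higher by 3.02 ± 0.27 (adjusted p = 3.44e-05), and H2-Aa, an MHC class II chain, was at -0.27 ± 0.06 and not called. Sirpa and Bst2, whose products were gated out, were matched by 1 route only and are not given. In these bulk samples, a change in RNA per cell and a change in the mix of sorted cells cannot be told apart.

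After R848, genes of CD8a+ cDC were called in both directions, with a balance that depended on the scaling. Of all genes tested, 9.76% were called, with 829 higher (4.64%) and 916 lower (5.12%) after R848. The counts of marker lists above and of gene lists below are to be read against these shares. With a shift of each array to a common median, 756 were higher and 1065 lower, and in the deposited values 1009 were higher and 799 lower. The arrays of both groups did not overlap in 821 of the genes called higher and 913 of those called lower, and in 44.4% of all genes tested. At least 4-fold differences were called for 208 genes higher and 179 lower, and at least 8-fold for 69 higher and 51 lower. The median difference over all genes was 0.00. Without R848 replicates 4 and 5 the counts were 846 higher and 853 lower, and without R848 replicates 1 to 3 they were 912 higher and 1041 lower.

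**Figure D2:**
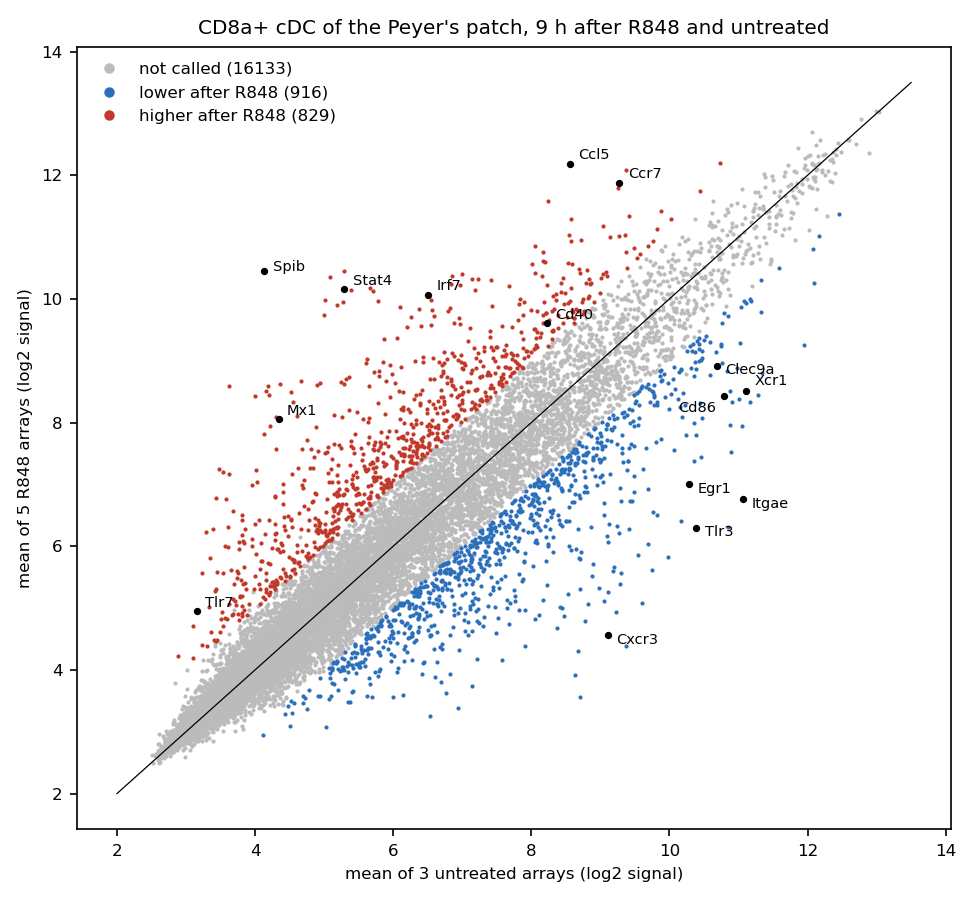
Mean log2 signal of the 17878 genes tested in the 5 R848 arrays (vertical) and the 3 untreated arrays (horizontal), with genes called higher (red, 829) and lower (blue, 916) after R848. Spib, Stat4 and Irf7 lie far above the line of equal levels, and Cxcr3, Tlr3 and Itgae far below it.

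The largest rise was in Spib, an Ets family transcription factor known from B cells, plasmacytoid dendritic cells and intestinal M cells. Spib had 10.60, 10.73, 10.77, 10.07 and 10.08 in the R848 arrays, against 4.03, 4.03 and 4.33 in the untreated arrays. The 5 R848 arrays lay together near the top of the range and the 3 untreated arrays near the bottom, a difference of 6.31 ± 0.19, adjusted p = 7.37e-08. Socs2, a feedback inhibitor of cytokine receptors, followed. Socs2 had 10.43, 10.23, 10.46, 10.32 and 10.34 in the R848 arrays, against 4.22, 5.62 and 5.40 in the untreated arrays. Untreated replicate 1 was the lowest, and the difference was 5.28 ± 0.27, adjusted p = 1.18e-06. Stat4, which carries IL-12 and interferon signals, rose by 4.87 ± 0.15, and Stat4 had 10.19, 9.93, 10.10, 10.42 and 10.16 in the R848 arrays, against 5.03, 5.67 and 5.17 in the untreated arrays. Tnfrsf4, which encodes the co-stimulatory receptor OX40, was at 4.97 ± 0.11. Tnfrsf4 had 10.05, 9.88, 9.98, 10.10 and 9.90 in the R848 arrays, against 4.74, 5.12 and 5.19 in the untreated arrays. The 5 R848 arrays of Tnfrsf4 spanned only 9.88 to 10.10. Lgmn, the lysosomal protease legumain, was at 4.71 ± 0.10, and Apod, a lipid-binding lipocalin, at 4.97 ± 0.12. The others of the 15 largest rises were Insl6 (5.16 ± 0.08), an insulin-like peptide, Castor2 (4.76 ± 0.11), an arginine sensor of the mTORC1 pathway, Nudt17, Glipr2, Clec2i, Asprv1, the melanosome transport gene Mreg, Slco5a1 and Ramp3, a partner of the calcitonin receptor-like receptor. The 7 after Castor2 had differences between 4.35 ± 0.28 for Ramp3 and 4.75 ± 0.20 for Nudt17. These 15 genes were chosen among called genes whose R848 and untreated arrays do not overlap.

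The largest fall was in Hepacam2, an adhesion protein of the immunoglobulin family. Hepacam2 had 3.61, 3.64, 3.45, 3.49 and 3.58 in the R848 arrays, against 8.88, 8.61 and 8.65 in the untreated arrays. The difference was -5.16 ± 0.08, adjusted p = 4.64e-09. Slc9a9, a sodium-proton exchanger of endosomes, fell, at -4.98 ± 0.24, and Rab7b, a small GTPase of late endosomes, at -4.71 ± 0.29. Cxcr3, the receptor for the interferon-induced chemokines CXCL9 and CXCL10, was high before R848. Cxcr3 had 4.54, 4.91, 4.38, 4.35 and 4.62 in the R848 arrays, against 9.27, 9.01 and 9.05 in the untreated arrays. The R848 arrays spanned 4.35 to 4.91, and none came near the untreated level. Alox5ap, the partner protein of 5-lipoxygenase in leukotriene synthesis, fell, at -4.53 ± 0.27. Itgae, which encodes CD103, was among the most abundant of these genes in untreated cells. Itgae had 6.69, 7.12, 7.39, 6.83 and 5.77 in the R848 arrays, against 11.06, 11.16 and 10.98 in the untreated arrays. R848 replicate 5 was the lowest, and the difference was -4.31 ± 0.31, adjusted p = 9.06e-06. The others of the 15 largest falls were Iqgap2 (-4.52 ± 0.10), Mctp1, Anxa1, the glucocorticoid-induced annexin, the transcription factor Egr2, the myosin Myo1f, Tlr3, Nucb2, the kinase Camk1d and Plet1 (-3.90 ± 0.43). These 15 were likewise chosen among called genes whose arrays do not overlap. Of these 30 genes, 18 had the same row partner by all 3 routes and the rest by 2.

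**Figure D3:**
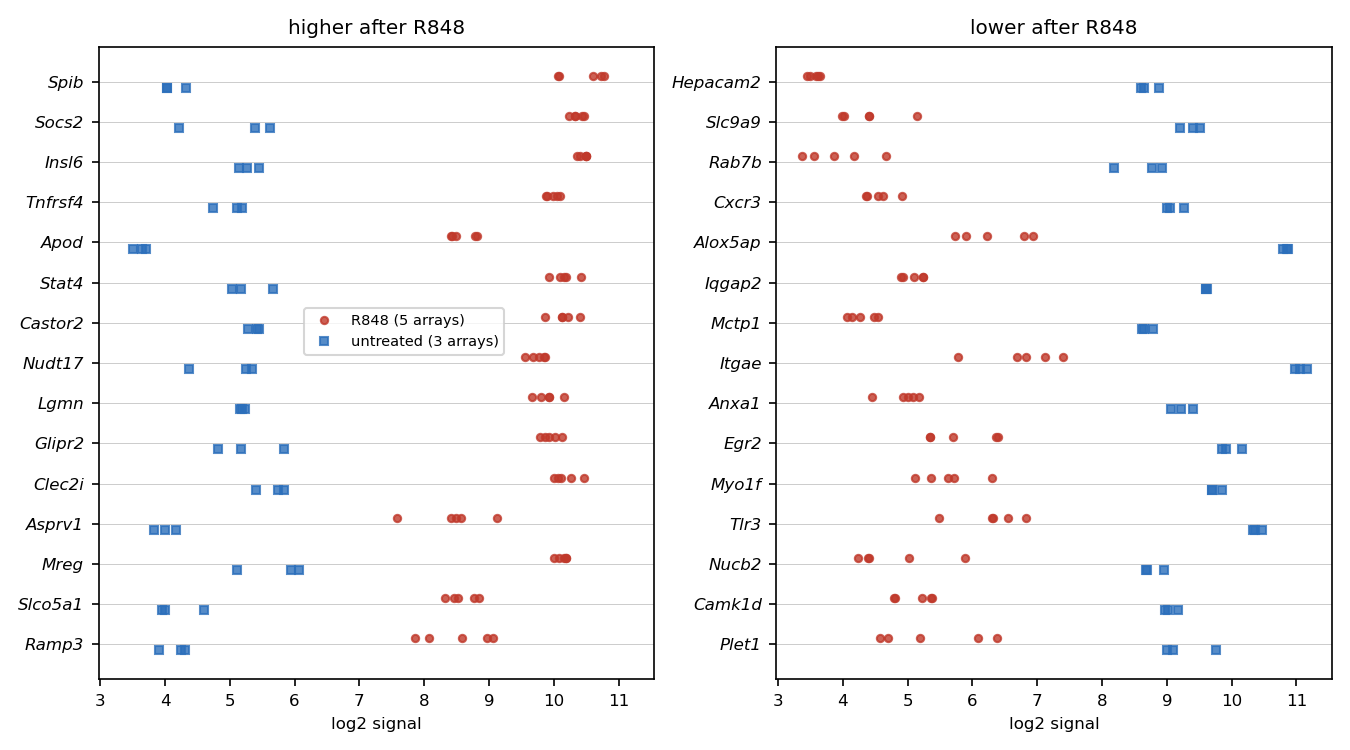
Log2 signal of the 15 genes with the largest rise (left) and the 15 with the largest fall (right) after R848, with 5 R848 arrays (red circles, upper row of each gene) and 3 untreated arrays (blue squares, lower row). The genes were chosen among those whose arrays do not overlap. R848 arrays of Spib lie at 10.07 to 10.77 and untreated arrays at 4.03 to 4.33.

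The endosomal sensor genes moved apart. Tlr7, the receptor for R848 itself, was low in untreated cells and higher after R848. Tlr7 had 5.40, 5.30, 5.23, 5.26 and 3.56 in the R848 arrays, against 3.17, 3.28 and 3.01 in the untreated arrays. R848 replicate 5 lay closest to the untreated arrays, and the difference was 1.80 ± 0.39, adjusted p = 0.00539. Without R848 replicates 1 to 3 it was 1.28 and not called. Tlr3, the sensor of double-stranded RNA, fell. Tlr3 had 6.31, 6.55, 6.83, 6.30 and 5.48 in the R848 arrays, against 10.34, 10.47 and 10.37 in the untreated arrays. The difference was -4.10 ± 0.25, adjusted p = 3.79e-06, with every R848 array below every untreated array. Unc93b1, the chaperone that brings these receptors to endosomes, fell, at -1.24 ± 0.10 (adjusted p = 1.83e-05). The adaptor Myd88 was at -0.81 ± 0.14, under the fold minimum. Over the list of R848 sensing and endosomal TLR signalling, 1 of 14 measured genes was higher and 2 were lower, with a median difference of -0.18. Over all genes, 4.64% were higher and 5.12% lower.

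Most measured interferon-stimulated genes rose. Of 30 measured genes, 19 were higher and 1 was lower, with a median difference of 1.52, against 4.64% higher and 0.00 over all genes. Among rows with the same partner through the untreated CD11b+ set, 20 were measured and 12 were higher. Of the 20 called genes, 7 were not measured there. None of the called genes measured there lost the call, which is largely built in, because those rows keep their partner. Oasl2, an oligoadenylate synthetase-like protein, showed the largest rise. Oasl2 had 8.74, 8.56, 8.81, 8.71 and 8.58 in the R848 arrays, against 4.45, 4.70 and 4.85 in the untreated arrays. The difference was 4.01 ± 0.10, adjusted p = 3.66e-08. Mx1, a GTPase that blocks influenza virus, followed at 3.72 ± 0.18. Mx1 had 7.88, 7.79, 7.89, 8.28 and 8.48 in the R848 arrays, against 4.64, 4.17 and 4.20 in the untreated arrays. The lowest R848 array, at 7.79, was well above the highest untreated array, at 4.64. Irf7, which drives type I interferon production in a positive loop, was at 3.57 ± 0.14. Irf7 had 10.08, 10.26, 10.23, 9.95 and 9.84 in the R848 arrays, against 6.47, 6.26 and 6.77 in the untreated arrays. Oasl1 (3.14 ± 0.09), which represses Irf7 translation, the ISG15 ligase Herc6 (3.03 ± 0.11) and Ifi27l2a (2.72 ± 0.20) were called higher too. The exception was Ifi205, a nuclear DNA-binding protein of the p200 family. Ifi205 had 10.06, 10.11, 10.08, 9.97 and 9.61 in the R848 arrays, against 11.17, 11.20 and 10.85 in the untreated arrays. Its difference of -1.11 ± 0.13, adjusted p = 0.000184 was called, but was -0.95 after a shift to a common median, -0.78 in the deposited values and -0.99 without R848 replicates 4 and 5, where it was no longer called. Irf9, an interferon regulatory factor, was at 0.20 ± 0.13 and Ifitm3, an antiviral membrane protein, at 0.06 ± 0.07, and neither was called. Of the 52 listed genes, 22 had no agreed row and are not given.

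Promoters of these genes were searched for the interferon-stimulated response element, written GAAANNGAAA on either strand, in the 300 bases of RefSeq promoter sequence (GRCm38.p6) per gene. The motif was found in 1131 of 32851 promoters (3.44%), and in a promoter of 1079 of 27025 genes (3.99%). Of the 15 interferon-stimulated genes called higher that have a promoter entry, 6 held it, namely Oas1a, Oas3, Stat2, Ifih1, Ddx58 and Trim30d, and so did 5 of the 9 other measured members. These 6 genes were named for their motif, after their values were seen. An 80-base window before the start of 4 of them is shown, because it places the motif in genes that rose. Capitals mark the motif, and the sequence runs along the gene's own strand. The motif ends 5 bases before the start in Oas1a, 66 in Oas3, 213 in Stat2 and 32 in Trim30d. The windows are chr5:120907526-120907605 on the minus strand for Oas1a, chr5:120777690-120777769 on the minus strand for Oas3, chr10:128270248-128270327 on the plus strand for Stat2 and chr7:104507850-104507929 on the minus strand for Trim30d.
Oas1a: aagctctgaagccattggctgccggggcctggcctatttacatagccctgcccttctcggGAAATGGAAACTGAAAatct
Oas3: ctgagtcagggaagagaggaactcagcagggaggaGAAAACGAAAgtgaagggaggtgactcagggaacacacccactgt
Stat2: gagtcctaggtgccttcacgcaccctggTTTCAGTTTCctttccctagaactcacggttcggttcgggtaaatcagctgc
Trim30d: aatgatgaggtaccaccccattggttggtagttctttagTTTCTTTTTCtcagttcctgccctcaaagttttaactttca
The Oas1a window holds 2 overlapping copies of the motif. Oas1a, an oligoadenylate synthetase, had a difference of 2.37 ± 0.15. Oas1a had 7.54, 7.85, 8.22, 7.78 and 7.68 in the R848 arrays, against 5.44, 5.65 and 5.25 in the untreated arrays. Oas3, which makes longer oligoadenylates, was at 2.64 ± 0.15, Stat2, a subunit of the interferon-activated complex, at 1.02 ± 0.12 and Trim30d at 1.41 ± 0.07. The Stat2 difference was 0.95 without R848 replicate 2 and 0.95 without untreated replicate 2, under the fold minimum. A match of letters is a description of the sequence and shows no binding. The motif of gamma-activated sites, TTCNNNGAA, was found in 8.3% of all promoters, in a promoter of 9.55% of all genes and in 2 of the 15 genes.

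Of 19 measured genes of interferon receptor and JAK-STAT signalling, 5 were higher and 1 lower. Stat3, which carries IL-6 and IL-10 signals, rose by 1.67 ± 0.10 and Irf1, an interferon-induced transcription factor, by 2.16 ± 0.12. Irf1 had 9.82, 10.07, 9.82, 10.04 and 10.25 in the R848 arrays, against 7.79, 7.66 and 8.05 in the untreated arrays. The lower gene was Irf8, the transcription factor on which cDC1 depend. Irf8 had 9.41, 9.30, 9.23, 9.08 and 9.39 in the R848 arrays, against 10.96 to 11.09 in the untreated arrays. The highest R848 array, at 9.41, was below the lowest untreated array, at 10.96, and the difference was -1.73 ± 0.09, adjusted p = 1.05e-06.

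Of 19 measured cytokine genes, 2 were higher and 4 lower, against 4.64% higher and 5.12% lower over all genes. Il6 was higher at a low level. Il6 had 5.07, 4.86, 4.51, 4.77 and 4.36 in the R848 arrays, against 3.06, 3.09 and 3.14 in the untreated arrays. Il1rn, the antagonist of the IL-1 receptor, rose by 1.91 ± 0.18. Il1b fell, at -1.98 ± 0.24, and Il1b had 7.54, 7.00, 7.74, 7.02 and 6.53 in the R848 arrays, against 9.11, 9.16 and 9.16 in the untreated arrays. Tnf fell, at -1.27 ± 0.14, Il18 at -1.45 ± 0.17 and Tnfsf13b, the B cell survival factor BAFF, at -1.21 ± 0.16. The Tnfsf13b value was -0.97 without untreated replicate 2, under the fold minimum. Ifnb1, the gene of interferon beta, was at 0.32 ± 0.06 and Il10 at 0.18 ± 0.13, and neither was called. The Ifnb1 signal stayed between 3.39 and 3.56 in the R848 arrays and between 3.10 and 3.19 in the untreated arrays.

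Among 17 measured chemokine genes, 3 were higher and 3 lower. Ccl5, which attracts T cells and NK cells, reached the top of the range. Ccl5 had 12.11, 12.22, 12.17, 12.22 and 12.22 in the R848 arrays, against 8.19, 8.90 and 8.60 in the untreated arrays. The difference was 3.62 ± 0.14, adjusted p = 2.28e-07. Ccl19, a ligand of CCR7 that draws naive T cells and mature dendritic cells, rose by 3.10 ± 0.09. Ccl19 had 8.67, 8.84, 8.90, 9.00 and 8.69 in the R848 arrays, against 5.73, 5.66 and 5.76 in the untreated arrays. Ccl17, which attracts CCR4+ T cells, moved the other way. Ccl17 had 7.98, 7.97, 8.47, 7.94 and 7.38 in the R848 arrays, against 10.69, 11.06 and 11.38 in the untreated arrays. Every R848 array was below every untreated array, and the difference was -3.09 ± 0.23, adjusted p = 1.15e-05. Cxcl13, the B cell chemokine, was higher by 1.82 ± 0.30. Of the markers given above, 3 of 8 for B cells and 3 of 7 for plasma cells were also called higher. Ccl3 fell, at -1.36 ± 0.41, and Cxcl2 at -1.18 ± 0.30, and the arrays of Ccl3 overlapped. The Ccl3 call was lost without R848 replicate 2 (-1.23), untreated replicate 1 (-1.12) or untreated replicate 3 (-1.01). Cxcl9 (-0.34 ± 0.10) and Cxcl10 (0.18 ± 0.23), both interferon-induced ligands of CXCR3, were not called.

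Migration genes were exchanged, with 6 of 20 measured genes higher and 5 lower. Ccr7, which guides dendritic cells to T cell zones, rose. Ccr7 had 11.73, 11.88, 11.73, 12.05 and 12.02 in the R848 arrays, against 8.63, 9.52 and 9.68 in the untreated arrays. The difference was 2.61 ± 0.22, adjusted p = 2.16e-05. S1pr1, the sphingosine-1-phosphate receptor for exit into lymph, rose by 3.78 ± 0.13. S1pr1 had 7.46, 7.12, 6.90, 7.28 and 7.48 in the R848 arrays, against 3.38, 3.47 and 3.57 in the untreated arrays. Vcam1, a ligand of the integrin VLA-4, was higher by 2.45 ± 0.10 and is also on the macrophage and monocyte marker list. Ccr9, the receptor for the small-bowel chemokine CCL25, and Xcr1, the receptor that marks cDC1, fell. Ccr9 had 4.74, 4.89, 4.62, 4.83 and 4.30 in the R848 arrays, against 8.48, 8.27 and 8.39 in the untreated arrays. Xcr1 had 8.41, 8.41, 8.68, 8.63 and 8.40 in the R848 arrays, against 11.11, 11.17 and 11.06 in the untreated arrays. Their differences were -3.70 ± 0.13, adjusted p = 1.67e-07 and -2.61 ± 0.09, adjusted p = 1.18e-07, and in neither gene did the groups overlap. Itgb7, the integrin chain that pairs with CD103, fell, at -2.31 ± 0.13, a gene named after its values were seen.

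Co-stimulation and maturation genes had 9 of 17 measured members higher and 2 lower, with a median difference of 1.04, against 0.00 over all genes. Cd200, an inhibitory ligand, rose by 3.18 ± 0.13, and the adhesion receptor Slamf1 by 2.89 ± 0.16. Cd200 had 10.30, 10.04, 10.37, 10.51 and 10.37 in the R848 arrays, against 7.13, 6.92 and 7.37 in the untreated arrays. The 4-1BB ligand gene Tnfsf9 was higher by 2.30 ± 0.22. Tnfsf9 had 7.69, 7.20, 7.47, 7.37 and 7.36 in the R848 arrays, against 4.55, 5.66 and 5.14 in the untreated arrays. The groups did not overlap. Havcr2, the receptor TIM-3, fell. Havcr2 had 6.24, 6.42, 6.87, 6.49 and 6.05 in the R848 arrays, against 10.39, 10.09 and 10.04 in the untreated arrays. The difference was -3.76 ± 0.17, adjusted p = 6.76e-07. Cd86, a ligand of CD28, was the other lower gene. Cd86 had 8.49, 8.35, 8.63, 8.64 and 8.07 in the R848 arrays, against 10.80, 10.82 and 10.76 in the untreated arrays. The R848 arrays reached at most 8.64 and the untreated arrays at least 10.76, and the difference was -2.36 ± 0.13, adjusted p = 1.65e-06. Tnfsf9 was named after its values were seen, and so were Cd40, the receptor for T cell help (1.39 ± 0.13), and Cd83, a maturation marker (1.17 ± 0.09). Cd80, the other ligand of CD28, was at 0.85 ± 0.14 and Lamp3, a lysosomal marker of maturation, at 0.05 ± 0.08, and neither was called.

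NF-kB genes had 10 of 18 measured members higher and 0 lower, with a median difference of 1.09. Traf1, an adaptor of TNF receptors, rose by 1.97 ± 0.07. Traf1 had 10.50, 10.55, 10.54, 10.53 and 10.68 in the R848 arrays, against 8.54, 8.55 and 8.68 in the untreated arrays. Tank, a regulator of TBK1, rose by 1.87 ± 0.10, the adaptor Traf2 by 1.69 ± 0.24 and Map3k14, the kinase NIK of the non-canonical pathway, by 1.56 ± 0.18. The subunit Rela was at 1.48 ± 0.08 and Nfkbib, an inhibitor that retains NF-kB in the cytoplasm, at 1.48 ± 0.09. The groups did not overlap in 14 of the 18 genes, against 44.4% of all genes tested.

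**Figure D4:**
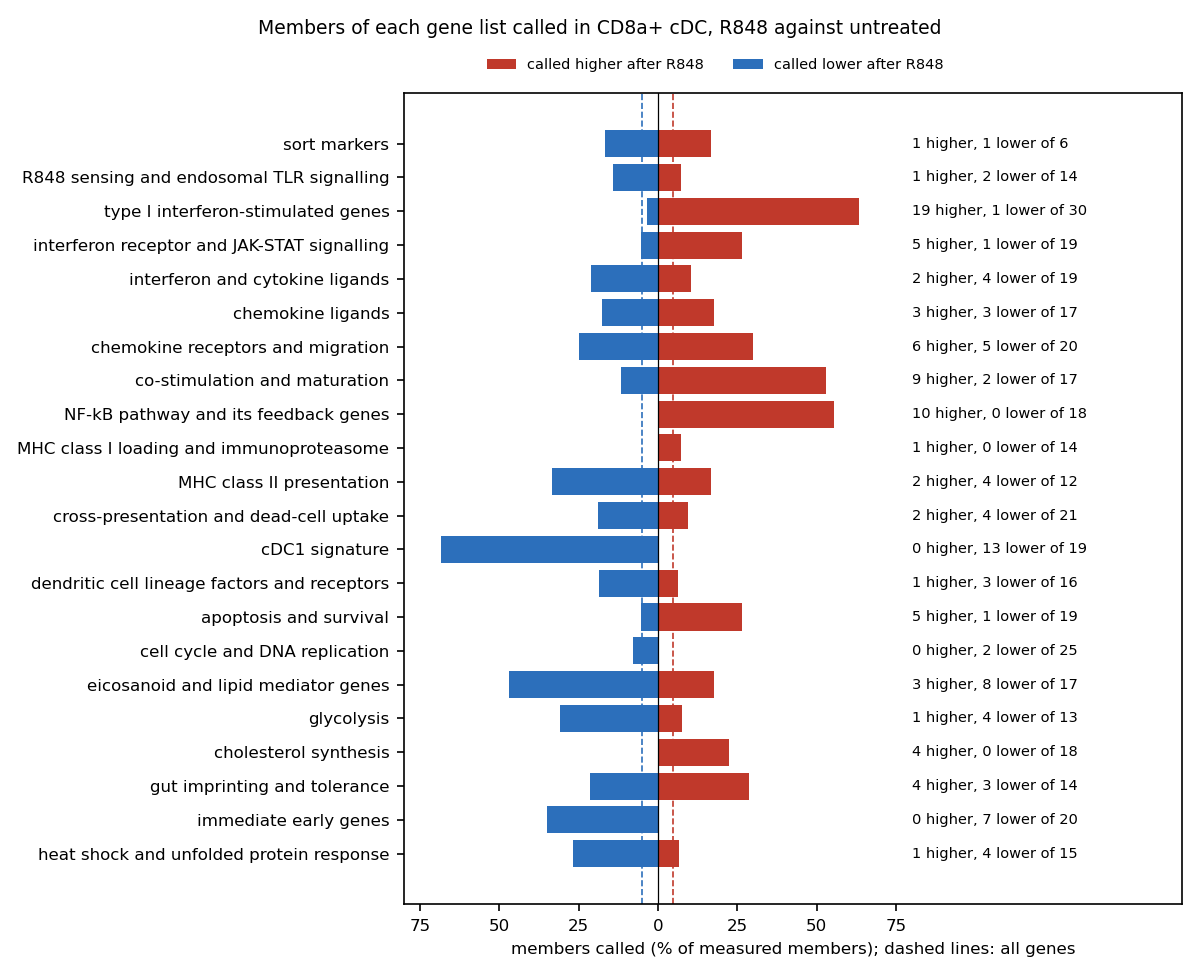
Percentage of the measured members of each gene list called higher (red, to the right) and lower (blue, to the left) after R848, with counts at the right and the share over all genes as dashed lines (4.64% higher and 5.12% lower). Interferon-stimulated, co-stimulation and NF-kB genes extend to the right, and the cDC1 signature to the left.

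Antigen presentation genes split. MHC class II presentation had 2 of 12 higher and 4 lower. Ciita, the master regulator of MHC class II genes, fell. Ciita had 6.33, 6.13, 6.29, 6.41 and 6.44 in the R848 arrays, against 9.39, 9.08 and 9.27 in the untreated arrays. The difference was -2.93 ± 0.10, adjusted p = 1.17e-07. H2-DMa, which loads peptides on class II, and H2-Oa and H2-Ob, which hold that loading in check, fell, at -2.54 ± 0.24, -2.61 ± 0.27 and -2.70 ± 0.15. H2-Oa had 8.72, 8.75, 8.85, 7.69 and 7.93 in the R848 arrays, against 11.06, 10.92 and 11.02 in the untreated arrays. R848 replicates 4 and 5 were the lowest for H2-Oa. Lgmn, given above, and the class II beta chain gene H2-Eb2 (1.66 ± 0.12) were higher. MHC class I loading and the immunoproteasome had 1 of 14 higher and 0 lower, against 4.64% higher and 5.12% lower over all genes. The higher gene was Psme2, an activator of the immunoproteasome, at 1.27 ± 0.19. The count of higher genes was 2 without R848 replicate 4 or 5, and 0 without R848 replicates 1 to 3, where Psme2 was at 0.91. Cross-presentation and dead-cell uptake had 2 of 21 higher and 4 lower. Clec9a, which recognises dead cells, fell, at -1.78 ± 0.16, and Clec9a had 8.70, 8.70, 8.94, 9.31 and 8.92 in the R848 arrays, against 10.96, 10.59 and 10.52 in the untreated arrays. Ncf4, a subunit of the phagocyte oxidase, fell, at -2.15 ± 0.23, while Cybb, its catalytic chain, rose by 2.05 ± 0.42 and is also a cDC2 marker. Cybb had 8.44, 8.26, 8.01, 7.15 and 6.52 in the R848 arrays, against 5.66, 5.24 and 5.99 in the untreated arrays. R848 replicates 4 and 5 had the lowest Cybb of the 5, still above the untreated arrays.

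The cDC1 signature had 0 of 19 measured genes higher and 13 lower, with a median difference of -1.73. Among rows with the same partner through the untreated CD11b+ set, 11 were measured and 7 were lower, with 6 of the 13 not measured. That 0 were no longer called is largely built in, because those rows keep their partner. Besides Rab7b, Itgae, Tlr3, Xcr1, Clec9a, Irf8 and Ifi205, the 13 lower genes of the main fit included Cadm1, an adhesion molecule, and Pianp, a ligand of inhibitory PILR receptors. Cadm1 had 6.39, 6.15, 6.14, 6.65 and 6.45 in the R848 arrays, against 9.08, 9.00 and 9.31 in the untreated arrays. The difference was -2.77 ± 0.13, adjusted p = 8.06e-07, and Pianp was at -2.47 ± 0.10. Batf3, a transcription factor that cDC1 need, and Id2, its partner in lineage choice, were not called at -0.11 ± 0.15 and 0.35 ± 0.12. The median gap of these genes to CD11b+ cDC was smaller in the R848 arrays. On the scale of the 4-group fit described below, 5 of 16 had a mean at least 2-fold higher and 1 at least 2-fold lower in R848 CD8a+ cDC than in R848 CD11b+ cDC, against 11 higher and 2 lower between the untreated groups, with median differences of 0.74 after R848 and 1.73 untreated. Xcr1 was at 8.55 in R848 CD8a+ cDC, against 3.84 in R848 CD11b+ cDC, and at 11.17 in untreated CD8a+ cDC, against 3.89 in untreated CD11b+ cDC. Among lineage factors and receptors 1 of 16 was higher and 3 were lower. Kit, the stem cell factor receptor, fell, at -2.74 ± 0.08, Runx3 at -1.24 ± 0.18 and Notch2 at -1.12 ± 0.12, and Zeb2, a repressor of the cDC1 fate, was higher by 1.02 ± 0.17 at a low level. The Zeb2 value fell under the fold minimum without R848 replicate 1 (0.99), 3 (0.97) or 4 (0.97) and without untreated replicate 2 (0.99) or 3 (0.98).

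Lipid mediator genes had 3 of 17 measured members higher and 8 lower. Beside Alox5ap and Anxa1, the leukotriene receptor Cysltr1 fell, at -3.42 ± 0.08. Cysltr1 had 4.30, 3.96, 4.23, 4.11 and 4.19 in the R848 arrays, against 7.56, 7.63 and 7.54 in the untreated arrays. Anxa2 and Anxa3, calcium-dependent membrane-binding annexins, rose by 3.41 ± 0.10 and 3.43 ± 0.17. Ptgs2, the inducible cyclooxygenase COX-2, was higher by 2.84 ± 0.38. Ptgs2 had 8.09, 6.87, 8.17, 8.76 and 8.61 in the R848 arrays, against 5.37, 4.91 and 5.49 in the untreated arrays. R848 replicate 2 was the lowest of the 5 and still above the untreated arrays.

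Metabolic genes moved in part. Glycolysis had 1 of 13 higher and 4 lower, against 4.64% higher and 5.12% lower over all genes. Pfkfb3, which makes the activator of phosphofructokinase, rose. Pfkfb3 had 11.30, 11.61, 11.37, 11.71 and 11.97 in the R848 arrays, against 8.01, 8.38 and 8.36 in the untreated arrays. The difference was 3.34 ± 0.16, adjusted p = 8.62e-07. The hexokinase Hk2 fell, at -2.25 ± 0.22, and the glucose transporter Slc2a1 at -1.41 ± 0.30. Cholesterol synthesis had 4 of 18 higher and 0 lower, with a median difference of 0.66. Idi1, which isomerises isopentenyl diphosphate, rose by 3.40 ± 0.15 and Fdft1, squalene synthase, by 1.99 ± 0.14. Idi1 had 10.52, 10.49, 10.55, 10.36 and 10.09 in the R848 arrays, against 6.69, 7.31 and 7.01 in the untreated arrays. The lowest R848 array of Idi1 was at 10.09, against at most 7.31 in the untreated arrays.

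Genes of gut imprinting and tolerance had 4 of 14 higher and 3 lower. Aldh1a2, which makes retinoic acid, was higher. Aldh1a2 had 10.19, 10.43, 10.34, 10.46 and 10.70 in the R848 arrays, against 7.88, 8.17 and 8.11 in the untreated arrays. The difference was 2.37 ± 0.12, adjusted p = 1.05e-06. Rara, a retinoic acid receptor, fell, at -1.77 ± 0.07, and Cyp26b1, which degrades retinoic acid, at -1.57 ± 0.17. Arg2, the mitochondrial arginase, was higher by 1.92 ± 0.21. Without R848 replicate 1, R848 replicate 3 or untreated replicate 1, 2 genes of the list were higher.

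Apoptosis and survival genes had 5 of 19 higher and 1 lower. Casp4, which senses cytosolic lipopolysaccharide, rose by 2.43 ± 0.17. Casp4 had 8.31, 8.10, 8.69, 8.86 and 8.57 in the R848 arrays, against 6.02, 5.96 and 6.26 in the untreated arrays. Bcl2l1, the survival factor BCL-XL, and Bcl2l11, the death factor BIM, rose by 1.64 ± 0.11 and 1.70 ± 0.09, and Nlrp3, an inflammasome sensor, fell, at -1.52 ± 0.07. Cell cycle and replication had 0 of 25 higher and 2 lower, against 4.64% higher and 5.12% lower over all genes. The 2 were the helicase subunits Mcm3 (-1.31 ± 0.30) and Mcm6 (-1.09 ± 0.29), both lowest in R848 replicate 5. Without R848 replicates 4 and 5, 0 were lower. The Mcm6 call was lost without R848 replicate 5 (-0.82), untreated replicate 2 (-1.08) or untreated replicate 3 (-1.06).

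Of 20 measured immediate early genes, which many stimuli switch on within minutes, 0 were called higher (1 without untreated replicate 2) and 7 lower, against 5.12% of all genes lower, with a median difference of -0.72. Another 4 had a positive difference past the adjusted p but under the fold minimum. Egr1 fell, at -3.29 ± 0.08. Egr1 had 7.05, 7.01, 7.10, 6.90 and 6.95 in the R848 arrays, against 10.23, 10.20 and 10.44 in the untreated arrays. Nr4a1, an orphan nuclear receptor, fell, at -3.85 ± 0.15, Egr2 at -4.15 ± 0.27 and Fos at -2.39 ± 0.22. Fos had 8.54, 7.38, 8.10, 8.09 and 8.30 in the R848 arrays, against 10.54, 10.48 and 10.38 in the untreated arrays. R848 replicate 2 was the lowest, and no array overlapped. Heat shock and unfolded protein response genes had 1 of 15 higher and 4 lower. The chaperones Hyou1 and Hspa5 fell, at -2.10 ± 0.14, and -1.17 ± 0.10, and Ddit3, the stress factor CHOP, was higher by 1.02 ± 0.16. The Ddit3 value was under the fold minimum without R848 replicate 4 (0.90), R848 replicate 5 (0.99) or untreated replicate 3 (0.91), with a per-array median shift (0.87) and with cyclic loess (0.95). The interferon-inducible GTPase list had 1 of 16 members measured, and it was not called.

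The CD8a+ response was set against that of CD11b+ cDC of the same organ, with 3 R848 and 5 untreated arrays, sorted as SIRPa+, CD11b-intermediate and CD8a-. The fit covered 16 arrays and 16527 genes, and the test was of the difference between both responses. Of all genes, 5.86% were called different, with 454 having the higher (2.75%) and 514 the lower (3.11%) response in CD8a+ cDC. In the deposited values the split was 825 higher and 286 lower. CD11b+ cDC on their own had 477 genes higher and 477 lower (5.77% in both directions, 2.89% in each). Of 751 genes called higher in CD8a+ cDC and measured in both, 286 were called higher in CD11b+ cDC too and 9 lower. The test of the difference placed 256 further out in CD8a+ cDC and 4 less far. Of 838 lower genes, 234 were called lower in CD11b+ cDC and 4 higher, with 329 further out in CD8a+ cDC and 6 less far. The median differences of these genes were 1.47 in CD8a+ cDC and 0.81 in CD11b+ cDC for the higher genes, and -1.38 in CD8a+ cDC and -0.66 in CD11b+ cDC for the lower ones. The genes were chosen by the CD8a+ response, so their larger size there is a description.

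Spib differed strongly between subsets, with 6.35 in CD8a+ cDC and 1.85 in CD11b+ cDC, a difference of 4.50 ± 0.28, adjusted p = 7.8e-08. Its mean level was 10.45 in R848 CD8a+ cDC, against 10.58 in R848 CD11b+ cDC, and 4.13 in untreated CD8a+ cDC, against 8.73 in untreated CD11b+ cDC. Lgmn had a response of 4.68 in CD8a+ cDC and 1.29 in CD11b+ cDC (3.39 ± 0.18, adjusted p = 4.64e-08), and Slc2a6, a lysosomal hexose transporter, of 2.73 in CD8a+ cDC and -0.75 in CD11b+ cDC (3.48 ± 0.21, adjusted p = 4.67e-08). Cxcr3 and Tlr3, which CD11b+ cDC had at a low level, gave responses of -4.54 in CD8a+ cDC and 0.16 in CD11b+ cDC for Cxcr3 (-4.69 ± 0.22, adjusted p = 9.14e-09) and -4.06 in CD8a+ cDC and 0.21 in CD11b+ cDC for Tlr3 (-4.27 ± 0.29, adjusted p = 1.73e-07). Ifi205 moved in opposite directions, with -1.10 in CD8a+ cDC and 2.79 in CD11b+ cDC (-3.88 ± 0.23, adjusted p = 4.67e-08). Ccr9 had a response of -3.69 in CD8a+ cDC and -0.58 in CD11b+ cDC (-3.11 ± 0.18, adjusted p = 4.67e-08), Hepacam2 of -5.18 in CD8a+ cDC and -1.89 in CD11b+ cDC (-3.29 ± 0.24, adjusted p = 4.57e-07), Gpr141b of -2.86 in CD8a+ cDC and 0.40 in CD11b+ cDC, Plpp1 of -3.54 in CD8a+ cDC and -0.33 in CD11b+ cDC and Itga8, an integrin chain, of -3.36 in CD8a+ cDC and -0.28 in CD11b+ cDC. The largest value was that of Gzma, a granzyme of cytotoxic cells, with 2.97 in CD8a+ cDC and -3.21 in CD11b+ cDC (6.18 ± 0.73, adjusted p = 4.74e-05). Gzmb had 2.10 in CD8a+ cDC and -2.21 in CD11b+ cDC, Cd7 1.75 in CD8a+ cDC and -2.35 in CD11b+ cDC and Thy1 0.86 in CD8a+ cDC and -2.71 in CD11b+ cDC. The metallothionein gene Mt2 had 3.29 in CD8a+ cDC and -1.01 in CD11b+ cDC. Gzma and Gzmb are members of the NK cell and ILC list and Thy1 of the T cell list. The part of these cells in the values was not tested.

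By list, the interferon-stimulated genes measured in each subset had a median response of 1.52 in CD8a+ cDC and 1.58 in CD11b+ cDC. Mx1 had 3.74 in CD8a+ cDC and 3.49 in CD11b+ cDC and Irf7 3.54 in CD8a+ cDC and 3.92 in CD11b+ cDC, and the difference between subsets was not called for either. It was called for 7 of the 24 interferon-stimulated genes in this fit, 3 with the higher and 4 with the lower response in CD8a+ cDC, against 5.86% of all genes. Of 16 cDC1 genes, 1 had the higher and 11 the lower response in CD8a+ cDC. The cDC1 list had medians of -1.73 over 19 genes in CD8a+ cDC and -0.18 over 16 in CD11b+ cDC. Co-stimulation genes had 1.04 over 17 in CD8a+ cDC and 0.27 over 15 in CD11b+ cDC. NF-kB genes had 1.09 in CD8a+ cDC and 0.36 in CD11b+ cDC, over the same 18 genes. Ccr7 responded by 2.68 in CD8a+ cDC and 1.51 in CD11b+ cDC (1.17 ± 0.32, adjusted p = 0.0188), and Cd40 by 1.38 in CD8a+ cDC and 0.27 in CD11b+ cDC (1.12 ± 0.21, adjusted p = 0.00165).

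**Figure D5:**
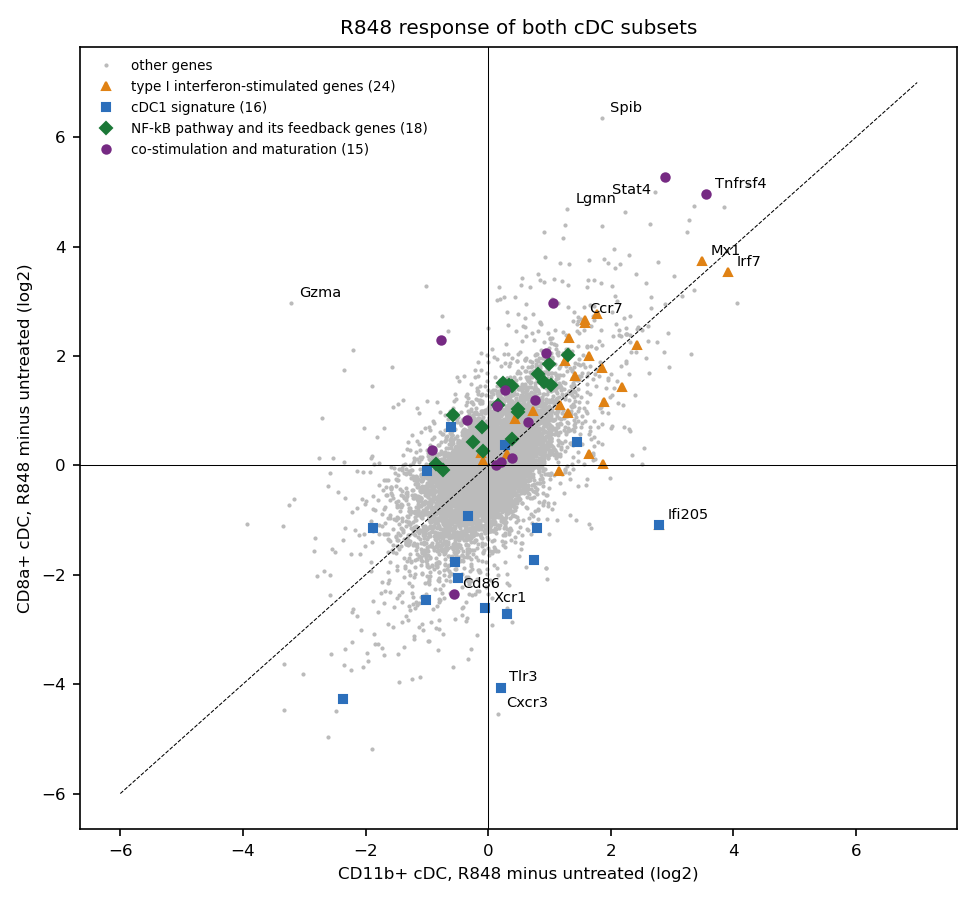
R848 minus untreated difference (log2) in CD8a+ cDC (vertical, 5 R848 and 3 untreated arrays) and CD11b+ cDC (horizontal, 3 R848 and 5 untreated arrays) of 16527 genes, with members of 4 lists in colour and the line of equal responses dashed. Spib and Lgmn lie far above that line, Cxcr3, Tlr3 and Ifi205 far below it, and Irf7 and Mx1 close to it.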

How the data were processed

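The deposited values are log2 signals that the authors computed with RMA in Affymetrix Expression Console 1.4.1, per the submitters' processing notes. Neither the build behind the probe annotation nor a joint normalization of the arrays is stated in the labels. Columns came in 3 array sets with different row orders. The first 6617 rows were left out, and the untreated CD8a+ rows were aligned to the R848 rows by a probabilistic order-keeping match along 3 routes (to R848 CD8a+ arrays, to R848 CD11b+ arrays and through the untreated CD11b+ set). A row was kept where at least 2 routes gave one partner with a posterior of at least 0.95 and no route disagreed within 10 rows, a rule set after the data were seen. In 3 simulated runs of the direct route, 0.214% to 0.327% of matched rows had a wrong partner. Rows changed 16-fold were matched in 83.5% to 88.8%, against 89.9% to 90.2% of all rows, so large responders are under-represented. The changed rows lay at random places, so these runs do not measure the loss of neighbouring rows that respond together. Of the lists, 22 of 52 interferon-stimulated genes and 15 of 16 interferon-inducible GTPases were not measured, against 10.3% of all genes without an agreed row. The size of this loss among real responders was not tested. With the untreated rows rolled out of place, 372 rows were matched.

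A gene was read from 1 transcript cluster with 1 gene symbol in the platform annotation, and 5529 aligned clusters without an annotation were left out. The 8 arrays were quantile normalized together over the matched genes, and R848 minus untreated was tested with limma 3.58.1 in R 4.3.3 (lmFit and eBayes, Benjamini-Hochberg over all genes). The comparison with CD11b+ cDC was an interaction contrast over 16 arrays. The alignment and the CD8a+ response were tested on simulated data, the interaction was not, and limma recovered 85 to 92 of 100 genes changed by 1.25 and 98 to 100 of 100 changed by 2.5 in log2 units, with 2 to 10 false calls among 17878 genes. Of 1158 genes of odorant, vomeronasal and taste receptor, keratin, crystallin and beta-defensin families, taken as negative controls, 1 was called. The number of arrays limits the precision. Replicate numbers were not taken as pairs.

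Genes named are the 15 with the largest rise and fall whose arrays do not overlap, up to 6 called and 3 uncalled members of each list, the sort markers, the cytokine, chemokine and sensor genes, and 8 genes per direction of the interaction. Exceptions are marked. The members and gene lists were chosen with earlier results of these data known.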

Additional observations from a re-analysis of the deposited data

Results flagged for a closer look

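Of 149 genes named in the text and looked at for this, 6 had 1 R848 array far from the other 4, where chance sets about 1 in 20 groups apart. R848 replicate 5 was low for Ifi205 (9.61), Mcm6 (5.71) and Tlr7 (3.56). R848 replicate 1 was high for Il10 (3.84) and low for Myd88 (6.81), and R848 replicate 2 was high for Oasl1 (9.94).

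The tested difference between both subsets' responses, CD8a+ minus CD11b+ cDC, was called for 76 of 129 of those named genes that were measured in both. Over all genes it was called for 5.86%. Many of the named genes were chosen for this difference or for a large CD8a+ response, so a high count was built in. Those given in the text were positive for Gzma (6.18), Spib (4.50), Gzmb (4.31), Mt2 (4.30), Cd7 (4.10), Thy1 (3.58), Slc2a6 (3.48), Lgmn (3.39), Ccr7 (1.17) and Cd40 (1.12). They were negative for Cxcr3 (-4.69), Tlr3 (-4.27), Ifi205 (-3.88), Hepacam2 (-3.29), Gpr141b (-3.26), Plpp1 (-3.21), Ccr9 (-3.11) and Itga8 (-3.08). Both responses compare array sets as well as treatments, and the 2 cannot be told apart.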

How the results depend on the processing

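No named gene that was called changed sign under the alternatives run, but the balance of calls turned in the deposited values (1009 higher and 799 lower). With genes of a mean level of at least 6 only, 5419 genes were tested and the balance turned too, with 621 higher and 595 lower. With no fold minimum, 3728 genes were higher and 3787 lower, and in the comparison with CD11b+ cDC 1605 and 1733. In the deposited values, which differ between array sets by a median of 0.18 in the CD8a+ response and 0.21 in the comparison, the comparison had 825 higher and 286 lower (74.3% of calls higher, against 46.9%), the cause of which was not tested beyond that shift. Leaving out single replicates gave 823 to 840 genes higher and 885 to 938 lower, and 403 to 501 and 473 to 582 in the comparison. Replicate numbers did not pair the samples, with correlations of deviations of -0.057, 0.026 and -0.054. With the number as a replicate block, 842 genes were higher and 842 lower, and 485 and 520 in the comparison. Requiring the same partner through the untreated CD11b+ set tests fewer genes (15657) on unchanged row partners. It gave 12 interferon-stimulated genes higher (20 measured) and 7 cDC1 genes lower (11 measured). Among named genes, Unc93b1, Notch2 and Hspa5 fell under the fold minimum in the deposited values (-0.97, -0.93 and -0.85). The alternatives by direct match, by any route and by all 3 routes were added after the data were seen, and gave 781, 934 and 630 genes higher, with 1032 lower by any route and 695 by all 3. Genes with signals near background have only compressed differences, and 10.3% of genes had no agreed row.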
